A study of Saccharomyces cerevisiae with 6 samples.

Results

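The sequence described here is that between divergent genes on yeast chromosome arms, and the question is where Rec8 cleavage differed there between ctf19-9A and wild-type (WT) cells. Members are the 20 bp bins of the authors' comparison whose middle lies between neighbouring genes that point apart. They lie on 13 of the 16 chromosomes (all but I, III and VI), more than 50 kb from the centromere, 20 kb from a chromosome end and 500 bp from any tRNA gene, with 1 stretch of chromosome XV left out by the rule. The rule found 503 bins of the 14224 that the authors listed, and these 503 lay in 124 of 1227 divergent gaps on the arms. Position alone made a listed bin a member, but every row of the table had already passed the authors' threshold, so the sizes below are those of called bins.

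The samples were 3 ctf19-9A and 3 WT diploid cultures, each started from a colony of its own zygote. Both genotypes carried Rec8-3xFLAG-MNase and ndt80-delta, so cells of both stop in meiotic prophase I. The ctf19-9A strains carried the allele ctf19-9A in addition. The labels give the strain background of all 6 samples as X and Y without explaining the letters. After about 16 h in YP acetate and 4.5 h in 1% potassium acetate, calcium was supplied as 2 mM CaCl2 for 5 min. The table holds no value of a single sample, so depth per sample is unknown and no SD between cultures can be given.

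Rec8 is the meiosis-specific kleisin of cohesin, the ring complex that holds sister chromatids together. In ChEC-seq, micrococcal nuclease fused to a protein cuts the DNA beside it once calcium is added, and the cut ends are counted. Cohesin is loaded at open chromatin and at centromeres, and along yeast arms it gathers mostly where transcription converges. Ctf19, a kinetochore protein, brings the cohesin loader to centromeres. A divergent gap holds the promoters of both flanking genes and usually a stretch with few nucleosomes.

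The table's header does not state the direction of its log2 fold change. It was read here as likely ctf19-9A over WT, since the study sets the mutant against WT and loss of Ctf19 function is known to lower cohesin around centromeres, where nearly all values are negative. Within 50 kb of the centromeres of these chromosomes 4996 listed bins were negative and 233 positive. A positive value is then more Rec8 cleavage in ctf19-9A cells relative to the rest of the genome, and with the sign turned it is less. How the libraries were scaled to each other is not given here, so an absolute gain on the arms cannot be told from a relative one.

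All 503 listed bins in divergent arm gaps were positive, and 0 were negative. Of the 154927 bins that the last p-value and false discovery rate imply were tested, 9.18% were listed in either direction and 5.58% were listed as positive. The bounds of the rule fix that sign. Of the 5114 negative bins on these chromosomes, all but 118 lay within 50 kb of a centromere, and those 118, of which 18 were in divergent gaps, lay in the stretch of XV that the rule leaves out. Inside the bounds every listed bin of every class of sequence was positive, so nothing is read from the sign. The log2 fold changes of the 503 bins had a median of 0.64 in the authors' deposited table and quartiles of 0.57 and 0.70. The standard error (SE) that each value and its p-value imply had a median of 0.196. That median equals a 1.55-fold difference, and the range of 0.40 to 1.09 runs from 1.32-fold to 2.12-fold. A false discovery rate under 0.01 was reached by 108 bins in 32 gaps, and one under 0.001 by 22 bins. The 5 members nearest the threshold had adjusted p-values of 0.0494 to 0.0498 and log2 fold changes of 0.47 to 0.64 in the authors' deposited table.

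Listed bins were scarce in divergent gaps next to the other intergenic classes. They made up 1.33% of the 37943 bins of divergent arm gaps, against 11.4% of convergent, 2.87% of tandem and 0.816% of gene body bins on the same arms, and 1.47% of all arm bins. The divergent share was below the convergent one on 13 of 13 chromosomes and below the tandem one on 11, and it was above that of gene bodies on 11. Counted by gap, 10.1% of divergent gaps held a listed bin, against 24.9% of 1183 convergent and 16.0% of 2296 tandem gaps, although divergent gaps were the longest, with a median of 505 bp against 213 bp for convergent and 392 bp for tandem gaps. The 154927 tested bins are fewer than the 459331 bins of these arms, and which ones were tested is not stated, so a bin that is not listed may have been untested or may not have passed. These differences between classes were not tested, because the table has no values of single samples.

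Where divergent bins were listed, their values lay farther from 0. The median log2 fold change of 0.64 for divergent bins in the authors' deposited table stood beside 0.53 for convergent, 0.61 for tandem and 0.52 for gene body bins. Divergent bins exceeded convergent ones in their medians on 13 of 13 chromosomes. The SE moved with the value, with medians of 0.196 for divergent, 0.161 for convergent, 0.187 for tandem and 0.165 for gene body bins, and it was also higher than in convergent bins on 13 of 13 chromosomes. Divided by its SE, the fold change had a median of 3.18 in divergent, 3.23 in convergent, 3.23 in tandem and 3.11 in gene body bins. Every listed bin had passed the same threshold, so the smallest ratio was 2.84 in divergent bins and 2.83 in each other class. Medians just above a shared floor cannot compare the classes, and nothing is read from their closeness. A bin with a larger SE must differ by more to pass the threshold. The part of this in the larger divergent values was not tested.

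**Figure D1:**
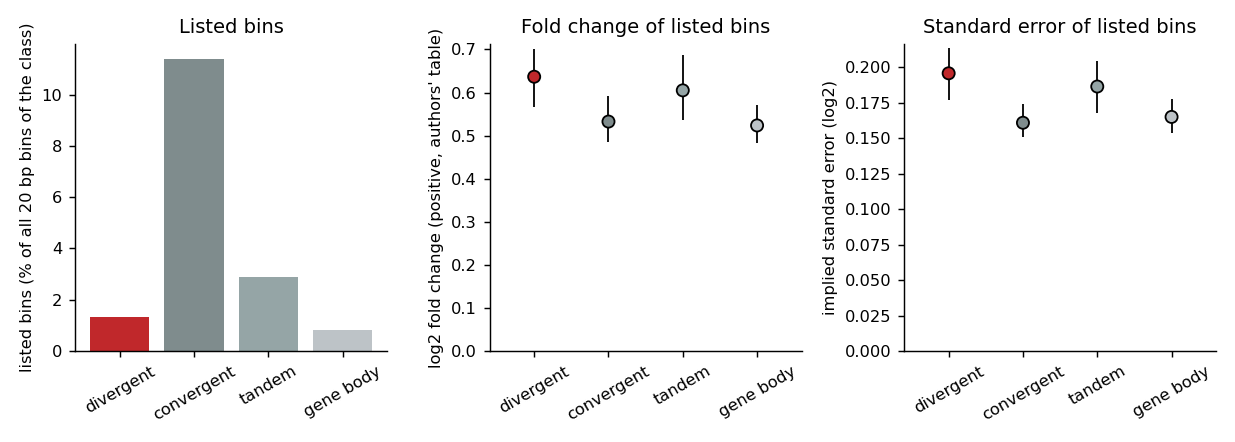
Share of 20 bp bins that were listed (left, %), log2 fold change of listed bins (middle) and implied standard error of listed bins (right), on chromosome arms by class of sequence. Points are medians and bars are quartiles. Divergent gaps have a listed share of 1.33% against 11.4% in convergent gaps, a higher median fold change (0.64 against 0.53) and a higher standard error (0.196 against 0.161).

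Chromosome IV carried the most divergent bins, 141, or 28.0% of the members with 14.6% of the divergent arm sequence. Chromosome VII followed with 70, and II and XV had 41 each, whereas XI had 11. By gap the chromosomes ranged from 6.17% on X (5 of 81 gaps, 95% exact binomial interval 2.03 to 13.8%) to 18.9% on IX (7 of 37 gaps, 7.96 to 35.2%). These intervals overlap and cover counting error only. The median log2 fold change per chromosome averaged 0.63 (SD 0.03, n = 13 chromosomes) in the authors' deposited table and ran from 0.59 on V to 0.67 on XIII.

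**Figure D2:**
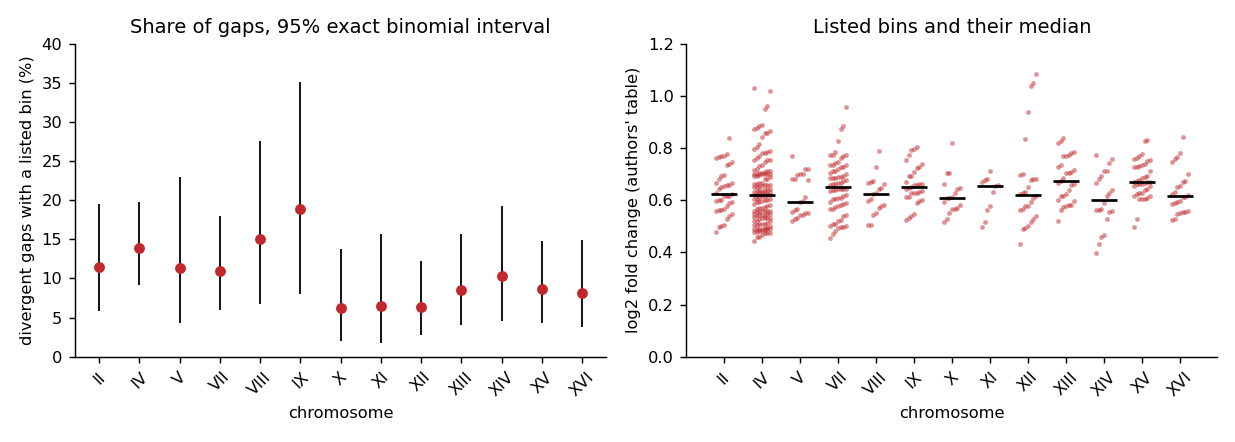
Share of divergent gaps that held a listed bin (left, %, with 95% exact binomial intervals) and log2 fold change of each listed bin with the median as a line (right), for 13 chromosomes. The intervals of chromosomes X and IX overlap, and the medians stay between 0.59 and 0.67.

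Most gaps held few bins. A single listed bin was found in 32 of the 124 gaps, 2 to 4 in 54, 5 to 9 in 30 and 10 or more in 8, and these 8 held 121 bins or 24.1% of the members. The listed bins covered 10.06 kb of 758.86 kb of divergent arm sequence. Touching bins joined into 172 runs with a median length of 40 bp, of which 67 were of 1 bin and 21 were longer than 100 bp. Of the 172 runs, 168 ended inside the gap, and 4 continued into a gene body. In 5 gaps at least 50 percent of the bins were listed.

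The highest values lay between COF1 and LDB18 on the left arm of XII, genes for cofilin, which severs actin filaments, and a subunit of dynactin. The gap spans chrXII:40415-40665 on R64 and is 251 bp long, and 7 of its 12 bins were listed, in 1 run of 140 bp. Along the gap, from the COF1 to the LDB18 side, the authors' deposited table gave log2 fold changes of 0.68, 0.83, 0.94, 1.04, 1.05, 1.09 and 0.70, each with an SE of 0.18 to 0.21. The values climbed across the middle and were lower again in the last bin on the LDB18 side, and the highest bin (chrXII:40561-40580), with an adjusted p of 7.6e-06 in the authors' deposited table, lay 95.5 bp from the LDB18 start.

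The next gap, between UGX2 and SFA1 on IV, was a longer one of 868 bp (158736 to 159603) with only 4 listed bins. SFA1 encodes a dehydrogenase that acts on formaldehyde and long-chain alcohols. Its bins had 0.75, 1.02, 1.03 and 0.96 in the authors' deposited table, with SEs of 0.19 to 0.21. All 4 lay 173.5 to 233.5 bp from the SFA1 start and at least 635.5 bp from that of UGX2, so only the SFA1 side of the gap held listed bins. Only these 2 gaps held a bin above 1.

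Between YGR117C and RPS23A, a gene for a protein of the small ribosomal subunit, 6 listed bins on VII had values of 0.66 to 0.96 in the authors' deposited table, the highest 163.5 bp from RPS23A (SE 0.22, adjusted p 0.00083). PSA1 on IV, for an enzyme that makes GDP-mannose for the cell wall, faces the tRNA gene YNCD0003W across 2817 bp. Its 8 bins with 0.60 to 0.95 in the authors' deposited table lay 411.5 to 551.5 bp from PSA1 and at least 2266.5 bp from the tRNA gene. The rest of the 10 gaps with the highest bins had 0.84 to 0.88 in the authors' deposited table. They were ATG20/TRM3, RVB1/HST4, CNL1/GGA1 and SNR84/HLR1 on IV, PBI1/ATP15 on XVI and PIN4/SEC17 on II. Among their genes are RVB1 for a helicase of chromatin remodellers, HST4 for a histone deacetylase, TRM3 for a tRNA methyltransferase, ATP15 for a subunit of mitochondrial ATP synthase, and SEC17 for a factor that recycles membrane-fusion proteins.

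In 4 of these 6 gaps the listed bins formed a single short run. PIN4/SEC17, 365 bp long, had 4 bins with 0.77, 0.84, 0.78 and 0.76 in the authors' deposited table (SEs of 0.22 to 0.24), which lay at the middle of the gap, 131.5 to 191.5 bp from PIN4. In PBI1/ATP15, a gap of 1914 bp, all 5 listed bins lay 108.5 to 188.5 bp from ATP15, and the authors' deposited table gave them 0.67, 0.84, 0.78, 0.77 and 0.75. ATG20/TRM3 and RVB1/HST4 were short gaps of 359 and 341 bp with 3 and 2 listed bins, all nearer to TRM3 and to HST4. Their SEs of 0.22 to 0.25 were among the larger ones, and their smallest adjusted p-values were 0.012 and 0.010 in the authors' deposited table. SNR84/HLR1 differed in having 2 groups of bins, 3 within 204.5 bp of the small nucleolar RNA gene SNR84 with 0.71 to 0.84 and 3 more at 415.5 to 475.5 bp from HLR1 with 0.50 to 0.55, both in the authors' deposited table.

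The gap with the most listed bins was TIM21/RPL26B on VII (554968 to 555811), with 22 of its 43 bins, in 5 runs. TIM21 serves protein import into mitochondria, and RPL26B encodes a protein of the large ribosomal subunit. From 123.5 to 483.5 bp from TIM21, the authors' deposited table gave 0.45 to 0.57 across 13 bins. A run of 9 bins followed towards RPL26B, with 0.83 at 261.5 bp from that gene (SE 0.18, adjusted p 0.00023) and 0.47 at 161.5 bp, both in the authors' deposited table.

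MET32/CHL4 and CNL1/GGA1, both on IV, were the long runs that crossed into a gene. MET32 encodes a transcription factor for sulfur amino acid genes, and CHL4 a kinetochore protein of the complex named after Ctf19. That gap (964566 to 965112) had 20 of 28 bins listed with 0.48 to 0.70 in the authors' deposited table and a low median SE of 0.144. Its main run of 540 bp began 9 bins inside MET32. In CNL1/GGA1 (1189568 to 1190058), 19 of 25 bins were listed with 0.49 to 0.86 in the authors' deposited table. There a run of 560 bp had 15 of its 28 bins in the body of CNL1, and a second run reached 1 bin beyond the gap. From 0.60 next to CNL1 the values climbed to 0.86 at 203.5 bp, and a second group of 5 bins near GGA1 had 0.49 to 0.78, all in the authors' deposited table. CNL1 encodes a subunit of an endosomal complex, and GGA1 a clathrin adaptor of the Golgi. The remaining run that left its gap was one of 2 bins beside YGL088W on VII.

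The other gaps with many bins were RPB5/CNS1 on II with 13, TLG1/SDC1 and EHD3/KRS1 on IV with 13 each, RPL24B/GPC1 on VII with 11, RPS22A/RPL39 on X with 10, and RCI37/SEC28 on IX and HMF1/PET117 on V with 9 each. COI1/RPP2B on IV also had 9. TLG1/SDC1 was covered almost end to end, with 13 of 16 bins in 1 run of 260 bp and 0.44 to 0.70 in the authors' deposited table. SDC1 is a subunit of the histone H3 methyltransferase complex COMPASS, and TLG1 a membrane-fusion protein of the Golgi. The gap's values were lower on the TLG1 side and highest 104.5 bp from SDC1. RPB5/CNS1, between a subunit of the RNA polymerases and an Hsp90 co-chaperone, instead had 4 runs, and the highest bin, 201.5 bp from RPB5, had 0.76 in the authors' deposited table (SE 0.17, adjusted p 0.00062).

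RCI37/SEC28 and HMF1/PET117 also had bins at both ends and none between. In RCI37/SEC28, beside the gene of a coat protein of Golgi vesicles, 7 bins at 97.5 to 217.5 bp from RCI37 had 0.53 to 0.80 in the authors' deposited table, and 2 near SEC28 had 0.54 and 0.60. In HMF1/PET117, beside a gene for the assembly of cytochrome c oxidase, the authors' deposited table gave 0.52 to 0.68 for 5 bins on the HMF1 side and 0.54 to 0.77 for 4 bins at 77.5 to 137.5 bp from PET117. EHD3/KRS1, beside the gene for lysyl-tRNA synthetase, had its 13 bins spread over 197.5 to 637.5 bp from EHD3, with 0.47 to 0.65 in the authors' deposited table and a smallest adjusted p of 0.017. RPL24B/GPC1, a gap of 1251 bp, had 10 of its 11 bins away from both genes, 551.5 to 771.5 bp from RPL24B, with 0.64 to 0.77 in the authors' deposited table. Both patterns, a group at each gene and a group in the middle, thus occurred among the gaps with most bins.

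**Figure D3:**
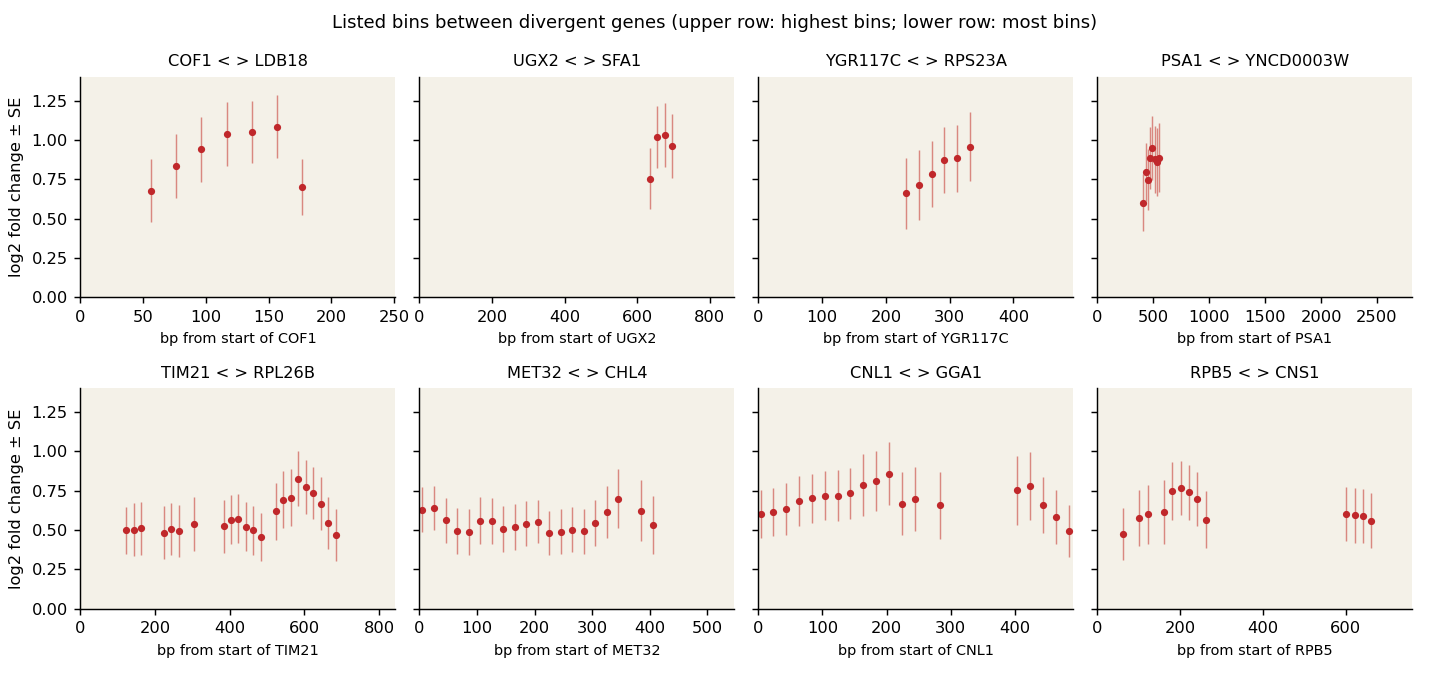
Log2 fold change with its implied standard error (vertical bars) of each listed bin, by distance in bp from the start of the left gene. The right edge is the start of the right gene. The upper row shows the 4 gaps with the highest bins and the lower row the 4 with the most bins. COF1/LDB18 climbs to 1.09, whereas MET32/CHL4 stays between 0.48 and 0.70 over 20 bins.

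Within the gaps, 24 of the 503 listed bins lay within 50 bp of a gene start. The middles of all listed bins lay a median of 182.5 bp from the nearer annotated gene start, with quartiles of 116 and 265.5 bp. The median was 269.5 bp for the unlisted bins of the same gaps. Within 100 bp of a start lay 18.5% of listed bins, against 23.1% of unlisted bins of the same gaps. Over all divergent arm bins it was 30.2%. The median over all bins of divergent arm gaps was also 182.5 bp, and gaps with a listed bin were longer (median 647 bp, against 495 bp for gaps with none). With the bins of the gaps that held a listed bin pooled per chromosome, the listed median was smaller than the unlisted one on 11 of 13 chromosomes. Bins were not compared gap by gap. Bins far from both starts exist only in long gaps, so gap length enters the comparisons with unlisted bins. From 100 to 250 bp lay 52.9% of listed bins, against 24.3% of unlisted bins of the same gaps and 31.5% of all divergent arm bins. Beyond 500 bp lay 6.76% of listed bins, against 30.0% of the unlisted bins of the same gaps. Over all divergent arm gaps, the share of bins listed was 0.418% within 50 bp of a start, 2.52% at 200 to 250 bp and 0.11% beyond 700 bp. The bins over 700 bp from both starts were 3648, and the 4 listed among them lay in 2 gaps. In gaps under 600 bp the share at 100 to 150 bp was 2.5%, and in longer ones 2.54% at 200 to 250 bp.

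In 91 of the 124 gaps all listed bins were nearer to the same gene. The 32 gaps with 1 listed bin are among these by definition. Of the 92 gaps with 2 or more listed bins, this held for 59. Listed bins often touch, and a short run can easily fall on 1 side of a gap's middle. No share for randomly placed runs was computed, so nothing is read from these counts. Gene starts are those of the annotation, which for protein-coding genes are start codons and not starts of transcription.

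**Figure D4:**
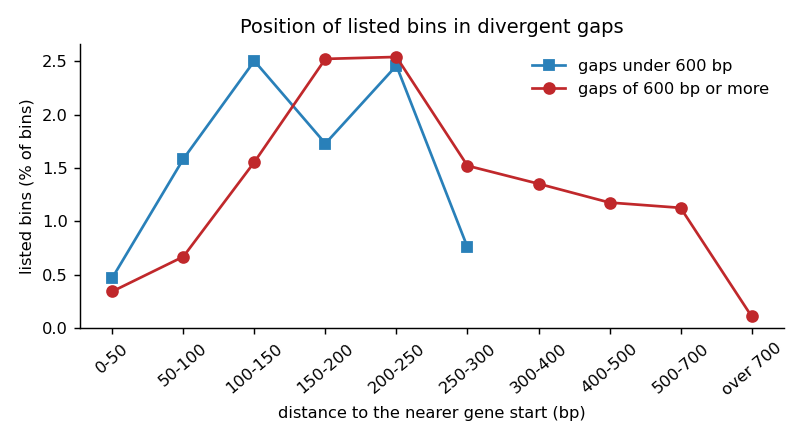
Share of bins that were listed (%) by distance of the bin to the nearer gene start (bp), for divergent gaps under 600 bp and of 600 bp or more. Shares are low within 50 bp of a start (0.418% over all gaps), reach about 2.5% between 100 and 250 bp and are lowest, 0.11%, beyond 700 bp.

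Gaps beside ribosomal protein genes held listed bins more often than other gaps did. These genes are among the most strongly transcribed of growing yeast, and many of their promoters are bound by Rap1 and its partners. The cells sampled here had been in 1% potassium acetate for 4.5 h, and neither transcription nor Rap1 binding was measured in them. Of 66 divergent arm gaps with a ribosomal protein gene, 20 (30.3%, 95% exact binomial interval 19.6 to 42.9%) held a listed bin, against 104 of 1161 other gaps (8.96%) and 10.1% over all 1227. They supplied 114 bins, 22.7% of the members, on 9 chromosomes, and 4.46% of their bins were listed against 1.10% in the other gaps. Ribosomal protein gaps are also longer, with a median of 750.5 bp against 491 bp. Between 600 and 1000 bp, where 32 of them fall, 13 (40.6%) held a listed bin, against 30 of 295 other gaps (10.2%). Tandem gaps upstream of a ribosomal protein gene were also listed more often, 14 of 52 (26.9%), against 354 of 2244 other tandem gaps (15.8%), so the higher share is not particular to divergent gaps. Listed bins of ribosomal protein and other gaps had median log2 fold changes of 0.64 and 0.63 in the authors' deposited table and median SEs of 0.198 and 0.195. These are medians of called bins that had all passed the same threshold, so they cannot show whether the size of the change differed. These differences in share were not tested, for want of values of single samples, and the list was chosen with earlier results of these data known.

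The ribosomal protein bins lay at a distance from the gene, as did most listed bins of long divergent gaps in general. In the 16 listed gaps with a ribosomal protein gene on 1 side alone, 86 bins had a median distance of 258.5 bp from its start, against 443.5 bp from the start of the partner gene. Their median lay nearer to the ribosomal protein gene in 13 of those 16 gaps. Over all divergent arm gaps with 1 such gene, 0.334% of bins within 100 bp of its start were listed, 6.85% at 100 to 200 bp, 10.0% at 200 to 300 bp and 2.83% at 300 to 400 bp. The share was 1.89% at 400 to 500 bp and higher again, 3.90%, at 500 to 700 bp. Most of the 16 bins listed at 500 to 700 bp came from RPL24B/GPC1 and TIM21/RPL26B. Of the 86 bins, 25 lay nearer to the partner gene. Bins of a gap share their source, and TIM21/RPL26B alone supplied 22 of the 86. In all divergent gaps of 600 bp or more, 0.343% of bins within 50 bp of the nearer start were listed. At 200 to 250 bp it was 2.54%. Ribosomal protein gaps of that length are included in these shares, and the position in other gaps alone was not compared.

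Divergent gaps between a pair of ribosomal protein genes numbered 5, and 4 held listed bins. RPS22A/RPL39 on X had 10 in 1 run of 200 bp, with 0.52 to 0.71 in the authors' deposited table. RPS16B/RPL13A on IV had 8 with 0.55 to 0.71, and its duplicate in the genome, RPL13B/RPS16A on XIII, had 6 with 0.62 to 0.78, both in the authors' deposited table. In both duplicates the bins lay on the side of the RPL13 gene, 153.5 to 293.5 bp from RPL13A and 123.5 to 223.5 bp from RPL13B. RPL24A/RPL30 had 4 listed bins, up to 0.64 in the authors' deposited table, and RPS15/RPP2A on XV had none. Some duplicated ribosomal protein genes had listed bins in the divergent gap beside each copy, and others in that of 1 copy only. The following pairs were chosen after their values were seen. RPL24B/GPC1 had 11 listed bins and RPL24A/RPL30 had 4, YGR117C/RPS23A had 6 and the gap beside RPS23B had 2, and the gaps beside RPL37A and RPL37B had 3 and 4. Median distances were 691.5 bp from RPL24B and 560.5 bp from GPC1, and 806.5 bp from RPL24A and 350.5 bp from RPL30. The bins beside RPS23B lay 264.5 bp from it and 202.5 bp from its partner NAT3. Beside RPS23A, RPL37A and RPL37B the median lay nearer to the ribosomal protein gene. RPL19A/AAC3 on II had 6 bins of 0.63 to 0.77 in the authors' deposited table, whereas the gap between YBL028C and RPL19B on the same chromosome, 584 bp long, had none. Likewise the divergent gaps beside RPL33A and RPL40A held listed bins, and those beside RPL33B and RPL40B held none. By smallest adjusted p, the leading ribosomal protein gaps after TIM21/RPL26B and YGR117C/RPS23A were TEM1/RPS1B (0.77, adjusted p 0.0041) and RPS22A/RPL39 (adjusted p 0.0052) in the authors' deposited table.

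**Figure D5:**
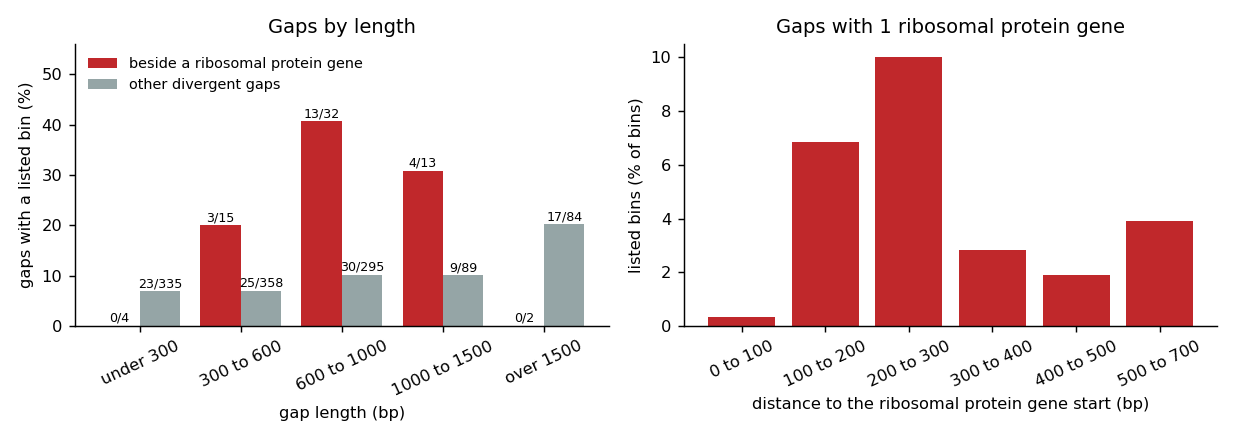
Left, share of divergent arm gaps with a listed bin (%) by gap length (bp), for gaps beside a ribosomal protein gene and for the other gaps, with counts over the bars. Right, share of bins listed (%) by distance to the ribosomal protein gene's start (bp) in gaps with 1 such gene. At 600 to 1000 bp, 13 of 32 ribosomal protein gaps and 30 of 295 others held a listed bin, and the share of bins is highest, 10.0%, at 200 to 300 bp from the start.

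The other gene lists stood near the 10.1% of all gaps or held too few gaps to tell. Mitochondrial ribosomal protein genes had 3 listed gaps of 30 (10.0%), and genes for ribosome synthesis 3 of 22 (13.6%). Beside a ribosome synthesis gene, RIE1/NOP19 on VII had 7 bins of up to 0.73 in the authors' deposited table, all nearer to RIE1 than to NOP19. Early meiotic genes, active at the stage sampled, flanked 15 divergent arm gaps, of which 2 (13.3%, exact interval 1.66 to 40.5%) held listed bins. One of them, SPO22/HOP1, separates a gene for synapsis initiation from the gene for a protein of the meiotic chromosome axis, and its 1 listed bin had 0.79 in the authors' deposited table (adjusted p 0.030). LIN1/REC104, beside a gene needed to form meiotic double-strand breaks, had 4 bins of up to 0.63 in the authors' deposited table.

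Cohesin and kinetochore genes flanked 10 divergent arm gaps, and 2 held listed bins (20%, exact interval 2.52 to 55.6%). MET32/CHL4 is described above. SCC4/SPT15 lies beside the gene for the cohesin loader subunit that binds Ctf19, and its 1 listed bin had 0.56 in the authors' deposited table (adjusted p 0.046). No bin was listed in the 2 histone gaps HTB1/HTA1 and HHT2/HHF2, in the 4 glycolytic gaps, in the 4 beside genes of acetate use and gluconeogenesis, or in the 4 beside chaperone genes. With so few gaps, exact 95% intervals allow shares of up to 84.2% for histone and 60.2% for each of the lists with 4. No galactose gene flanked a divergent gap within the bounds of the rule.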

How the data were processed

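Rec8 ChEC-seq was compared between 3 ctf19-9A and 3 WT cultures. Per the submitters' processing notes, DESeq2, Bowtie2 2.5.0, FastQC 0.11.9 and deepTools 3.4.3 were used, with R64 and sacCer3 as builds. How reads were filtered and bins chosen is not stated. For each 20 bp bin the authors deposited a p-value, its adjusted form (the false discovery rate) and log2 fold changes before and after shrinkage, per the file headers. The largest listed false discovery rate was 0.0500.

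Genes came from the RefSeq table of R64, the build of the files, with strand read from systematic names (6430 of 6431 nuclear genes). A gap is the sequence between neighbouring genes, and its bins were counted on the table's own grid. Chromosome ends were taken as the last gene or bin. Each SE was computed here as the size of the log2 fold change over the normal deviate that its p-value (taken as two-sided) corresponds to. The number of tested bins assumes Benjamini-Hochberg adjustment. Shares have exact binomial intervals at the 95% level, which treat gaps as independent. Python 3.11.15, pandas 2.3.3 and scipy 1.17.1 were used, and the steps were tested on simulated data.

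The gaps named were the 10 with the highest bin, the 10 with the most bins (ties by highest bin), and list members by smallest adjusted p. Pairs such as RVB1/HST4 are written in chromosome order. The members and lists were chosen with earlier results of these data known. Base composition, motifs and sequences were planned but not analysed here, as no genome sequence was used.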

Additional observations from a re-analysis of the deposited data

How the results depend on the processing

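At a false discovery rate under 0.01, 108 divergent bins were left, their median log2 fold change was 0.73, the share of divergent gaps with a listed bin was 2.61%, and that of ribosomal protein gaps was 10.6% (7 of 66, against 25 of 1161 other gaps, 2.15%). The authors' shrunken values had a median of 0.44. Requiring 3 or more bins per gap gave 5.62% of all gaps and 21.2% of ribosomal protein gaps, against 4.74% of other gaps. These shifts follow from fewer bins passing or from the shrinkage itself. Of the 21 alternatives other than leaving out a chromosome, 15 kept the count within 1.5 times the main value, or the value within its spread between chromosomes or binomial interval. They include a whole bin between the genes (498 bins), protein-coding genes only (481) and 75 kb from the centromere (450). Leaving out each chromosome in turn gave 362 to 492 bins, the lowest without IV, a median of 0.63 to 0.64, 9.46 to 10.5% of gaps, 171.5 to 184.5 bp to the nearer start, and 25.9 to 34.5% of ribosomal protein gaps. Alternatives for ribosomal protein genes, and those that left out such gaps (8.96% of gaps) or gaps over 1500 bp (443 bins), were chosen after seeing the data. Alternatives on base composition were not run. No paired analysis was possible because the table holds no column of a single replicate. Depth per sample is unknown, and bins that were not listed cannot be told from bins that were not tested.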

Other observations

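Divergent gaps with a listed bin had other listed bins nearby. The nearest listed bin outside the gap lay a median of 1830 bp away for the 124 gaps with a listed bin and 4412.5 bp for the 1103 without. It lay within 1000 bp for 26.6% of the first and 5.44% of the second. For the 124 gaps that nearest bin was in a gene body in 51, a tandem gap in 36, a convergent gap in 30 and another divergent gap in 7. Of all 6753 listed arm bins, 2858 were in gene bodies, 1582 in tandem, 1810 in convergent and 503 in divergent gaps. Gene bodies led and divergent gaps came last in both counts, so nothing particular to these gaps is read from the split. Without ribosomal protein gaps the medians were 1790.5 and 4394.5 bp.

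The share of divergent gaps with a listed bin ran from 5.93% to 15.1% over 7 bands of distance from the centromere. At 150 to 200 kb from the centromere 8 of 135 divergent gaps held a listed bin (5.93%, 95% exact binomial interval 2.59 to 11.3%), next to 23 gaps at 100 to 150 kb (15.1%, 9.84 to 21.8%) and 28 of 243 at 200 to 300 kb (11.5%, 7.79 to 16.2%). In the other 4 bands the share was 7.62 to 11.9%. The 3 intervals overlap, the bands were chosen after the data were seen, and differences between them were not tested.

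Gaps bounded by an RNA gene other than a tRNA gene, or by a pseudogene, held listed bins in 8 of 36 cases (22.2%). The share was 9.82% (110 of 1120) between protein-coding genes and 8.45% (6 of 71) beside a tRNA gene. This split was not planned, gap lengths were not matched, and the differences were not tested. Among the 8 were RME2/COX13 with 5 bins, SNR7-L/PET54 with 3 and CSS1/SDL1 with 7, with highest log2 fold changes of 0.76, 0.73 and 0.70 in the authors' deposited table. Gaps longer than 1500 bp were listed most often by gap (17 of 86, 19.8%) but least by bin (0.686%). The longest gap with a listed bin, 7349 bp between the tRNA genes YNCN0010C and YNCN0011W on XIV, had 8 bins of up to 0.62 in the authors' deposited table, and Ty elements were not annotated here.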
